A study of Mus musculus with 6 samples.

Results

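The epidermal growth factor receptor (EGFR) system was described in alveolar epithelial type 2 cell (AT2) preparations of mouse lung through 9 genes. They are 5 ligand genes (Areg, Hbegf, Tgfa, Ereg and Btc), 3 ErbB receptor genes (Egfr, Erbb2 and Erbb3) and Errfi1, the gene of an inhibitor of these receptors. The genes were taken by symbol from the 13931 genes listed for every library, and the FPKM (fragments per kilobase of transcript, scaled to sequencing depth) of a gene's transcripts were summed. All 9 were listed, with 11 of the 24647 transcripts. The study compared AT2 preparations from C57BL/6 mice after multiple exposures to bleomycin, a DNA-cleaving drug that injures the lung, at a labelled dose of 1 U/kg, with preparations from C57BL/6 mice after multiple exposures to PBS, the saline vehicle. There were 3 libraries of bleomycin preparations and 3 of PBS preparations, with 3 mice named for each group. No transgene or deletion is named in the labels. No source used here gives the purification of the cells, the number, spacing or route of exposures, the sex and age of the mice or when lungs were taken.

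ErbB receptors are tyrosine kinases of the cell surface that act in pairs. EGFR (gene Egfr) binds amphiregulin (Areg), heparin-binding EGF-like growth factor (Hbegf), transforming growth factor alpha (Tgfa), epiregulin (Ereg) and betacellulin (Btc), which are made as membrane-bound precursors and shed by metalloproteases. ERBB2 has no known ligand of its own and serves as a partner for the others, while ERBB3 binds neuregulins and has a weak kinase. Mitogen-inducible gene 6 (Errfi1) is induced by receptor signalling and blocks the kinase, which makes it a feedback inhibitor. In the lung epithelium the system is known for its part in growth and repair after injury.

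The 5 ligands share an EGF-like domain, recognised by 6 cysteines with fixed spacing that form its disulfide bonds and with which the ligand meets the receptor. The coding sequences of that domain are shown for 4 ligands, 5′ to 3′, with the 6 cysteine codons in capitals, read from the GENCODE M21 transcripts of the GRCm38 assembly (mm10).
Areg: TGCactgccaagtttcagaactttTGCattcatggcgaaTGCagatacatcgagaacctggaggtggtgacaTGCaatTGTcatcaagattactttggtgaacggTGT
Tgfa: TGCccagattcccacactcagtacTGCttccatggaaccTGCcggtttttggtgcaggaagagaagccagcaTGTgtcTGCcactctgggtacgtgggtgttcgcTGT
Ereg: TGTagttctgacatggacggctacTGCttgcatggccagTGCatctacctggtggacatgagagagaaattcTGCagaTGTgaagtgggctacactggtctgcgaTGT
Btc: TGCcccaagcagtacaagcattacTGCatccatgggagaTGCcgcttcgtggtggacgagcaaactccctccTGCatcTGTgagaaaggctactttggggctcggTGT
Each of these runs is 108 bases long, begins in exon 3 and ends in exon 4 of its transcript, and is the only match to the pattern in that coding sequence. Areg's lies at chr5:91143614-91144364 and Ereg's at chr5:91088496-91089111, both on the plus strand. Btc's lies at chr5:91362421-91366197 on the minus strand and Tgfa's at chr6:86263200-86269960 on the plus strand, each span including the intron between both exons. The pattern, with 7, 4 to 5, 10 to 13, 1 and 8 codons between successive cysteine codons, was found in 18 of 13844 genes searched (0.130%). Base identity over the domain was highest between Tgfa and Btc (67 of 108 bases, 62.0%) and lowest between Tgfa and Ereg (49 bases, 45.4%). Areg shared 58 bases with Ereg (53.7%) and 62 with Btc (57.4%).

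Ereg, Areg and Btc are also neighbours in the genome. Ereg (ENSMUSG00000029377.5, chr5:91074622-91093646, plus strand) is separated from Areg (ENSMUSG00000029378.5, chr5:91139599-91148432, plus strand) by 46.0 kb, and Areg from Btc (ENSMUSG00000082361.6, chr5:91357261-91402994, minus strand) by 209 kb. Hbegf (ENSMUSG00000024486.5) lies at chr18:36504929-36515805 and Tgfa (ENSMUSG00000029999.14) at chr6:86195223-86275719. Each ligand had 1 listed transcript. Their coding parts are short, from 159 codons in Tgfa to 248 in Areg, and the untranslated exon bases range from 471 in Areg to 4050 in Tgfa.

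The libraries differed in more than these genes. Listed FPKM summed to between 259607 and 272315 in the bleomycin libraries and between 253146 and 300697 in the PBS libraries, and the read depth behind a value is unknown. Of 12326 tested genes, 15.2% rose and 7.34% fell with bleomycin (limma, Benjamini-Hochberg adjusted p under 0.05), and the median log2 fold change was 0.09. After scaling libraries to equal medians it became -0.07, and with quantile normalization -0.08. In those fits 1475 genes rose and 1412 fell, and 1431 rose and 1441 fell, against 1871 and 905 without scaling. AT2 markers were abundant in both groups, with a summed FPKM over 14 genes of 3526 to 7834 in bleomycin libraries and 18202 to 26276 in PBS libraries. Most of these sums came from Sftpc, at 2356 to 5805 FPKM in bleomycin libraries and 13393 to 20624 FPKM in PBS libraries. Of 13 tested AT2 markers 11 fell, and Cebpa was at 0 in bleomycin replicates 1 and 2 and in each PBS library. Whether a difference in such bulk preparations came from fewer cells of a type or from less RNA per cell cannot be told apart.

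All 3 receptor genes fell with bleomycin, with means 2.24-fold to 2.50-fold higher in PBS libraries, while none of the 3 tested ligands passed the test in either direction. Of the 9 genes, 7 passed the filter on low values (at least 1 FPKM in at least 3 of 6 libraries), and those 7 were at 1 FPKM or more in all 6 libraries. Of these 7, 3 fell and none rose, beside 7.34% and 15.2% of all tested genes. Among these 7 the groups did not overlap for 4, all lower in bleomycin libraries. Of all tested genes, 16.4% were lower and 27.2% higher without overlap. Ereg, which was not tested, was higher in bleomycin libraries without overlap.

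**Figure D1:**
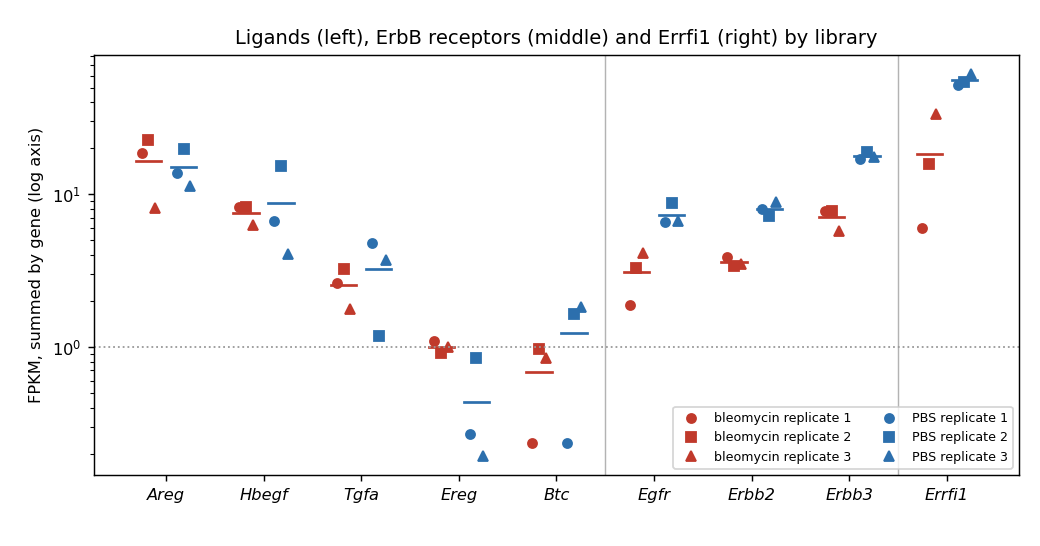
FPKM summed by gene (log axis) of the 9 genes in the 3 bleomycin libraries (red) and the 3 PBS libraries (blue), with symbols for replicates 1, 2 and 3, a bar at each group's mean and a dotted line at 1 FPKM. The 3 receptors and Errfi1 are lower in every bleomycin library than in every PBS library, the values of Areg, Hbegf, Tgfa and Btc overlap between groups, and Ereg is higher in every bleomycin library.

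Among the ligands, Areg was the most abundant in both groups. Areg measured 18.7, 22.8 and 8.09 FPKM in bleomycin replicates 1, 2 and 3, and 13.8, 19.9 and 11.3 FPKM in PBS replicates 1, 2 and 3. Bleomycin libraries held both the highest and the lowest value, so the groups overlapped. The means were 16.6 ± 7.61 FPKM with bleomycin and 15.01 ± 4.43 FPKM with PBS (SD, n = 3 each). The log2 fold change of FPKM + 1 was 0.06 ± 0.40 (SE), with a 95% interval of -0.89 to 1.00 and a limma adjusted p of 0.937. With equal medians or quantile normalization its sign turned (-0.13 and -0.060).

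Hbegf encodes a ligand that binds both EGFR and ERBB4. It measured 8.28, 8.19 and 6.30 FPKM in bleomycin libraries and 6.72, 15.4 and 4.09 FPKM in PBS libraries. PBS replicate 2 stood above the other 5 libraries and PBS replicate 3 below them. Its log2 fold change was -0.02 ± 0.42 (95% interval -1.02 to 0.99, limma adjusted p = 0.983).

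Tgfa, a ligand of EGFR made by many epithelia, measured 2.63, 3.22 and 1.78 FPKM in bleomycin libraries and 4.78, 1.19 and 3.71 FPKM in PBS libraries. The lowest value was in PBS replicate 2, the library with the highest Hbegf and, among PBS libraries, the highest Areg and Ereg. The log2 fold change of Tgfa was -0.16 ± 0.39 (95% interval -1.09 to 0.77, limma adjusted p = 0.803). Intervals of this width do not show that the 3 ligands were alike in both groups, since each spans about 1 log2 unit on either side. PBS replicate 2 also had the highest values of all libraries of 2 immediate early genes, Egr1 (406 FPKM, against 161 to 237 FPKM in the other 5 libraries) and Fos (771 FPKM, against 286 to 556 FPKM). Of the other ERK-induced genes looked up below, Fosl1, Maff, Klf6 and Phlda1 were also highest in that library. Junb, Ier3, Myc, Ccnd1, Etv4 and Etv5 were not. The part of any of these genes in the ligand values was not tested.

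The other 2 ligands were near or under 1 FPKM and were not tested with the rest. Ereg, which activates EGFR and ERBB4, measured 1.10, 0.912 and 0.991 FPKM in bleomycin libraries and 0.270, 0.850 and 0.193 FPKM in PBS libraries. The bleomycin values were all higher, though bleomycin replicate 2 and PBS replicate 2 differed by little. In a fit with no filter its log2 fold change was 0.50 ± 0.20 with a limma adjusted p of 0.125. Btc, which also activates EGFR and ERBB4, measured 0.233, 0.969 and 0.847 FPKM in bleomycin libraries and 0.233, 1.65 and 1.81 FPKM in PBS libraries. The groups overlapped, and in the unfiltered fit its log2 fold change was -0.35 ± 0.37 (limma adjusted p = 0.544). The number of fragments behind these low values is unknown.

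Erbb3 was the most abundant of the receptor genes in both groups and had the smallest adjusted p of the 9 genes. It lies at chr10:128567523-128589652 on the minus strand (ENSMUSG00000018166.8), with 28 exons and 1339 codons. Erbb3 measured 7.80, 7.79 and 5.74 FPKM in bleomycin libraries and 16.9, 18.8 and 17.5 FPKM in PBS libraries. Every bleomycin value was below every PBS value, with little spread inside either group. The means were 7.11 ± 1.19 FPKM with bleomycin and 17.8 ± 0.991 FPKM with PBS (SD, n = 3 each), and the log2 fold change was -1.22 ± 0.17 (95% interval -1.63 to -0.81, limma adjusted p = 0.00368). Among all 13931 genes its mean stood at percentile 51.4 in bleomycin libraries and at percentile 80.0 in PBS libraries.

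Erbb2, the partner receptor, lies at chr11:98412470-98437716 on the plus strand (ENSMUSG00000062312.5), with 27 exons and 1256 codons. It measured 3.89, 3.404 and 3.48 FPKM in bleomycin libraries and 8.02, 7.20 and 8.86 FPKM in PBS libraries. The lowest PBS value exceeded the highest bleomycin value by more than the range within either group. Erbb2 fell with a log2 fold change of -0.97 ± 0.16 (95% interval -1.36 to -0.59, limma adjusted p = 0.00731). The means were 3.59 ± 0.262 FPKM with bleomycin and 8.03 ± 0.830 FPKM with PBS (SD, n = 3 each).

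Egfr, the receptor of all 5 ligands, lies at chr11:16752203-16918158 on the plus strand (ENSMUSG00000020122.16). It measured 1.88, 3.27 and 4.10 FPKM in bleomycin libraries and 6.58, 8.73 and 6.64 FPKM in PBS libraries. The groups did not overlap, but the bleomycin values spread more in proportion (coefficient of variation 36.3%) than the PBS values (16.8%). The log2 fold change was -1.06 ± 0.26 (95% interval -1.67 to -0.44, limma adjusted p = 0.0298). This call ended with almost any library left out, with adjusted p of 0.0627 and 0.0711 without bleomycin replicate 1 or 2, and 0.0650, 0.0867 and 0.0700 without PBS replicate 1, 2 or 3. Without bleomycin replicate 3 it was 0.0263. The calls of Erbb2 and Erbb3 held with each library left out (limma adjusted p of 0.0188 to 0.0325 and of 0.00841 to 0.0180).

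**Figure D2:**
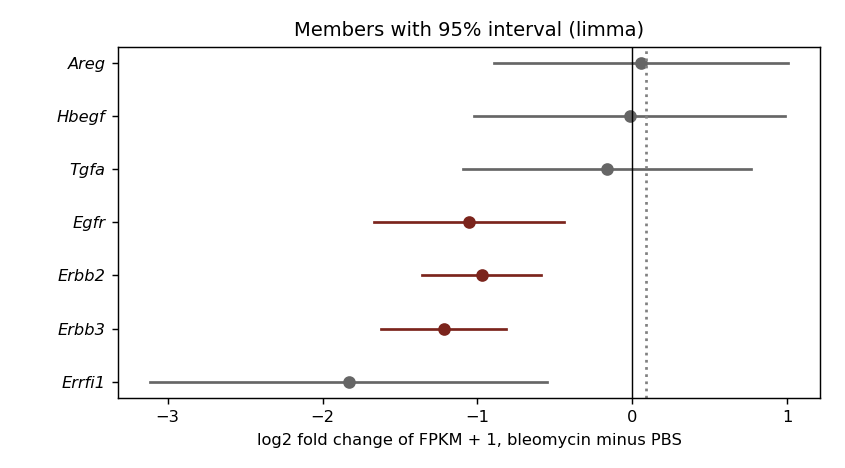
Log2 fold change of FPKM + 1, bleomycin minus PBS (points), with its 95% interval from limma (lines) for the 7 genes tested, in dark red where the adjusted p was under 0.05, with a dotted line at the median of all tested genes (0.09). The intervals of Egfr, Erbb2 and Erbb3 lie below 0, those of the 3 ligands span it, and Errfi1 has the lowest value (-1.83) and the widest interval.

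Egfr had 2 listed transcripts of different coding length. Egfr-001 has 28 exons and 1210 codons and Egfr-002 has 16 exons and 655 codons, ending at 16887923 where the longer one runs to 16918158. Egfr-001 measured 1.82, 2.83 and 3.05 FPKM in bleomycin libraries and 4.81, 7.55 and 5.11 FPKM in PBS libraries. The longer transcript alone was thus lower in every bleomycin library, and Egfr passed on it alone (-0.93, limma adjusted p = 0.0454). Egfr-002 measured 0.0670, 0.437 and 1.05 FPKM in bleomycin libraries and 1.76, 1.18 and 1.53 FPKM in PBS libraries. Its share of the gene's FPKM was 3.56%, 13.4% and 25.6% in bleomycin libraries and 26.8%, 13.6% and 23.0% in PBS libraries, which overlap.

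Errfi1, the feedback inhibitor, had the highest mean of the 9 genes in both groups and the largest difference between groups, but did not pass the test. It measured 6.03, 15.8 and 33.5 FPKM in bleomycin libraries and 51.8, 54.7 and 61.7 FPKM in PBS libraries. Every bleomycin library was below every PBS library, while the bleomycin values spread widely (coefficient of variation 75.5%, against 9.08% with PBS). In bleomycin replicates 1 and 2 Areg was higher than Errfi1. The log2 fold change was -1.83 ± 0.53 (95% interval -3.11 to -0.55) with a limma adjusted p of 0.0527. Without bleomycin replicate 3, the library with the highest of the bleomycin values, it was -2.39 with an adjusted p of 0.0126, and without any of the other 5 libraries it did not pass (0.0620 to 0.133), with a value of -1.24 without bleomycin replicate 1. Errfi1 passed in 3 of 11 alternative settings, with a pseudocount of 5, equal medians or library weights (limma adjusted p of 0.0415, 0.0370 and 0.0238), and not in the other 8 (0.0530 to 0.116). Its mean stood at percentile 79.1 of all genes in bleomycin libraries and at percentile 94.7 in PBS libraries.

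The 2 listed Errfi1 transcripts have the same coding length of 461 codons and 4 exons each, and start at different positions on chromosome 4, Errfi1-002 at 150853919 and Errfi1-001 at 150855073. Errfi1-001 measured 6.03, 14.2 and 32.7 FPKM in bleomycin libraries and 40.9, 32.2 and 61.1 FPKM in PBS libraries, so that on this transcript alone bleomycin replicate 3 overlapped PBS replicate 2. Its log2 fold change was then -1.53 (limma adjusted p = 0.116). Errfi1-002 measured 4e-05, 1.61 and 0.785 FPKM in bleomycin libraries and 10.9, 22.5 and 0.617 FPKM in PBS libraries. PBS replicates 1 and 2 thus had a share of 21.1% and 41.2% from this transcript, against 1.00% in PBS replicate 3. Transcripts that share most exons are hard to tell apart from reads, so these shares are less certain than the gene's sum.

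Promoter sequences from RefSeq (GRCm38.p6) were at hand for Areg, Btc, Egfr, Erbb2, Errfi1 and Tgfa, 6 of the 9 genes. The 250 bases before the start are shown for Egfr and Erbb2, the receptor genes at hand, and for both RefSeq starts of Errfi1. Areg is shown as the most abundant ligand. The upstream RefSeq start of Errfi1 (150853796) lies before the start of Errfi1-002 (150853919), and the bases between them were not searched. Capitals mark exact matches on either strand to 5 motifs, the GC box GGGCGG, the cAMP response element TGACGTCA, the AP-1 site TGANTCA, the CCAAT box CCAAT and the TATA box TATAAA.
Egfr (chr11:16751953-16752202, plus strand): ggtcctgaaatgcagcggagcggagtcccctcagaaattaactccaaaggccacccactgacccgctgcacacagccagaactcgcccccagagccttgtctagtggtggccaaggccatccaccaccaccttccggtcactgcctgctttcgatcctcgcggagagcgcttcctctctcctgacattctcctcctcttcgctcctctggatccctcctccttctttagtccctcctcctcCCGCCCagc
Erbb2 (chr11:98412234-98412483, plus strand): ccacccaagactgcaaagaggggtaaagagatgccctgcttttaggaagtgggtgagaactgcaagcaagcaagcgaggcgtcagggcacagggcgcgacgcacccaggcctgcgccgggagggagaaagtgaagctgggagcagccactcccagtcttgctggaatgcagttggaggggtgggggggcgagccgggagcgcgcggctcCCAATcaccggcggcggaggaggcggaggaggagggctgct
Errfi1 upstream start (chr4:150853546-150853795, plus strand): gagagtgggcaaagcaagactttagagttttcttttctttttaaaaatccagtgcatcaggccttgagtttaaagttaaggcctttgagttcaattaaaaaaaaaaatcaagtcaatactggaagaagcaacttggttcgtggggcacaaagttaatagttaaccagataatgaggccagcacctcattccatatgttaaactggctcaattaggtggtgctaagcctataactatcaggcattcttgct
Errfi1 downstream start (chr4:150854820-150855069, plus strand): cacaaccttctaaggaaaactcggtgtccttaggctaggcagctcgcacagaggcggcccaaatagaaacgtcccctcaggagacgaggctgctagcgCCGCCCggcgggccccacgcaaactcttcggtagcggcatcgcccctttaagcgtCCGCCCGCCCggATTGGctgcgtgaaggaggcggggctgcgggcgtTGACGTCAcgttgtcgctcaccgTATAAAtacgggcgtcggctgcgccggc
Areg (chr5:91139349-91139598, plus strand): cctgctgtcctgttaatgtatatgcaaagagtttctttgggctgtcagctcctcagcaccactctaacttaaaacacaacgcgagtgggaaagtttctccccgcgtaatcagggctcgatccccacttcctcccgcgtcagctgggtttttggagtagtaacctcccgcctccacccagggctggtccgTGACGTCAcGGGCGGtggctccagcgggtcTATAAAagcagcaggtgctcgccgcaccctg
The window of the downstream Errfi1 start and that of Areg each held 1 cAMP response element and 1 TATA box, and 1.55% and 12.4% of the 32851 promoter windows of this length held these motifs. GC boxes numbered 3 in the downstream Errfi1 window, 2 of them overlapping, and 1 each in the Areg and Egfr windows, where 32.7% of all windows had at least 1. A CCAAT box was found in the Erbb2 and the downstream Errfi1 window (33.8% of all windows), and an AP-1 site in none of the 5 (6.75% of all windows). The upstream Errfi1 window held none of the 5 motifs while the downstream window was 64.8% G or C, against a median of 52.4% over all windows. Of the windows not shown, that of Btc held none of the 5 motifs, and that of Tgfa held 2 GC boxes and no other motif. These matches describe letters in the windows and do not show binding.

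Order of the levels differed between groups. In bleomycin libraries it ran Errfi1, Areg, Hbegf, Erbb3, Erbb2, Egfr, Tgfa, Ereg and Btc by mean FPKM, in PBS libraries Errfi1, Erbb3, Areg, Hbegf, Erbb2, Egfr, Tgfa, Btc and Ereg. Among bleomycin libraries the ranges of neighbours were separate between Erbb3 and Erbb2 and between Tgfa and Ereg, and overlapped for the other 6 pairs of neighbours. Among PBS libraries they were separate between Errfi1 and Erbb3 and between Egfr and Tgfa, and overlapped for the other 6 pairs. The receptors kept their order Erbb3, Erbb2, Egfr in both groups.

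Summed over the 5 ligands, FPKM were 31.0, 36.1 and 18.01 in bleomycin libraries and 25.8, 39.0 and 21.1 in PBS libraries. Summed over the 3 receptors, they were 13.6, 14.5 and 13.3 in bleomycin libraries and 31.5, 34.8 and 33.0 in PBS libraries. The ligand sums overlapped and the receptor sums were far apart, with a mean of 13.8 ± 0.601 FPKM with bleomycin and 33.1 ± 1.64 FPKM with PBS (SD, n = 3 each), 2.40-fold higher in PBS libraries. The log2 ratio of ligand to receptor FPKM, which a common scaling of a library leaves as it is, was 1.19, 1.32 and 0.44 in bleomycin libraries and -0.29, 0.17 and -0.64 in PBS libraries. Every bleomycin ratio was above every PBS ratio, by 1.24 on average, with an exact two-sided permutation p of 0.1, which is the smallest that 3 libraries against 3 allow.

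**Figure D3:**
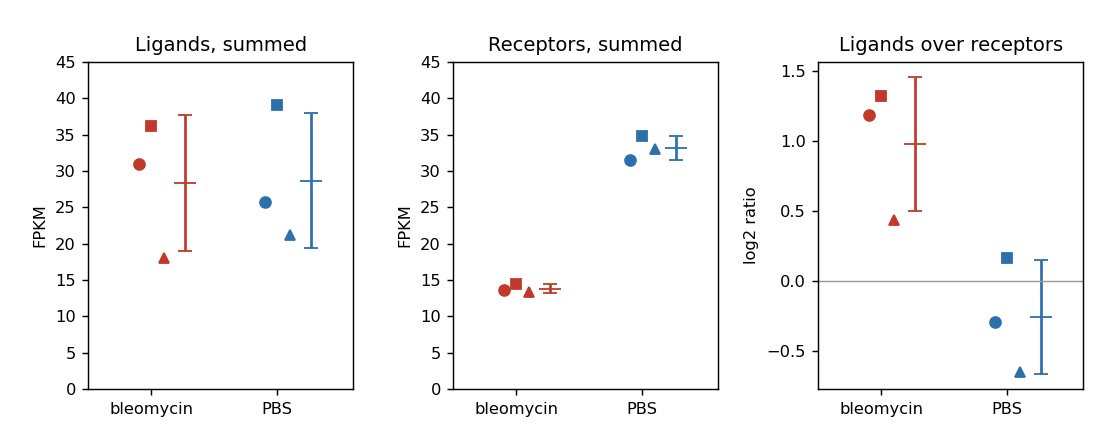
FPKM summed over the 5 ligands, FPKM summed over the 3 receptors and the log2 ratio of these sums in bleomycin libraries (red) and PBS libraries (blue), with circles, squares and triangles for replicates 1, 2 and 3 and the mean ± SD beside them. Ligand sums overlap (18.01 to 36.1 and 21.1 to 39.0 FPKM), receptor sums do not (13.3 to 14.5 and 31.5 to 34.8 FPKM), and the ratio is higher in each bleomycin library.

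The make-up of the receptor pool overlapped between groups, while its size did not. Erbb3 made up 57.5%, 53.9% and 43.1% of receptor FPKM in bleomycin libraries and 53.7%, 54.2% and 53.1% in PBS libraries. Erbb2 made up 28.6%, 23.5% and 26.1% in bleomycin libraries and 25.5%, 20.7% and 26.8% in PBS libraries. For Egfr the shares were 13.9%, 22.6% and 30.8% in bleomycin libraries and 20.9%, 25.1% and 20.1% in PBS libraries. The groups overlapped for each receptor, and bleomycin replicate 3, with the most Egfr and the least Erbb3, stood apart from both other bleomycin libraries. The log2 ratio of Erbb3 to Egfr (1 FPKM added to each) was 1.02 ± 0.60 with bleomycin and 1.18 ± 0.13 with PBS (SD, n = 3 each, exact two-sided permutation p = 0.8). Within the ligand pool Areg made up 60.5%, 63.2% and 44.9% in bleomycin libraries and 53.4%, 51.0% and 53.6% in PBS libraries.

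Marker lists of other cell types also differed between the groups. The 8 epithelial genes (Epcam, Cdh1, Krt8, Krt18, Krt19, Cldn7, Elf3 and Esrp1) summed to 174 to 341 FPKM with bleomycin and 306 to 533 FPKM with PBS. Their log2 fold changes centred on a median of -0.87, with Krt19 at 0.29, and 1 of 8 passed, Esrp1, which fell. The tested AT2 markers had a median of -1.89, the fibroblast and smooth muscle markers one of -1.38, and the 3 receptors one of -1.06. Leukocyte antigen Ptprc measured 107 to 249.5 FPKM with bleomycin and 0.0706 to 4.85 FPKM with PBS. Of the T and NK cell markers all 9 tested rose, with sums of 239 to 441 FPKM with bleomycin and 2.48 to 7.60 FPKM with PBS, where Foxp3 was at 0 in each library.

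Macrophage and monocyte markers rose in 9 of 11 cases (sums of 171 to 384 FPKM with bleomycin and 19.6 to 22.9 FPKM with PBS, Ms4a7 at 0 in PBS libraries), and neutrophil markers in 5 of 5 (384 to 559 FPKM with bleomycin and 8.29 to 29.9 FPKM with PBS). All 6 B and plasma cell markers rose (445 to 887 FPKM with bleomycin and 13.5 to 24.8 FPKM with PBS). Markers of mast cells, basophils and innate lymphoid cells, cells known to make amphiregulin, rose in all 4 tested cases (Kit, Cma1, Gata3 and Il1rl1). Cpa3, Fcer1a and Mcpt8 were below the filter, and Ms4a2 was not found. The markers found summed to 24.4 to 36.0 FPKM with bleomycin and 1.61 to 2.02 FPKM with PBS, with Fcer1a and Il1rl1 at 0 in PBS libraries. Kit was the largest part of the sum in each bleomycin library. Whether Kit and Gata3 RNA came from these cells or from others was not tested. All 8 endothelial markers rose (281 to 529 FPKM with bleomycin and 26.9 to 29.0 FPKM with PBS, Cldn5 at 0 in PBS libraries). Whether a value of 0 stands for no RNA is unknown. Junb, for example, was at 0 in PBS replicate 3 and at 354 and 508 FPKM in PBS replicates 1 and 2. Of 8 fibroblast and smooth muscle markers 4 fell (470 to 1136 FPKM with bleomycin and 1849 to 2560 FPKM with PBS). AT1 markers fell in 1 of 8 cases (295 to 383 FPKM with bleomycin and 401 to 598 FPKM with PBS), and 1 of 6 club and ciliated airway markers rose (2424 to 3827 FPKM with bleomycin and 2396 to 10521 FPKM with PBS). Most of the airway sums came from Scgb1a1, at 1747 to 3202 FPKM with bleomycin and 2011 to 9716 FPKM with PBS. The part of these cell types in the receptor and ligand levels was not tested.

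Set against epithelial markers of the same library, the receptor values overlapped between groups, each being lower on average with bleomycin. This comparison was chosen after seeing the data. The epithelial mean was itself lower with bleomycin (a difference of -0.70, without overlap), and that fall enters each difference here. Erbb3's log2(FPKM + 1) minus the mean of the 8 epithelial genes was -1.93, -1.83 and -1.36 in bleomycin libraries and -1.31, -1.37 and -0.87 in PBS libraries, a difference of -0.52 (exact two-sided permutation p = 0.2). For Erbb3 only bleomycin replicate 3 (-1.36) and PBS replicate 2 (-1.37) crossed, and by little. Erbb2 and Egfr differed by -0.28 and -0.36, and their groups overlapped (exact p of 0.5 and 0.6, two-sided). Areg on this scale was -0.76, -0.39 and -0.92 in bleomycin libraries and -1.59, -1.29 and -1.45 in PBS libraries. All bleomycin values of Areg were higher, by 0.75 on average (exact p = 0.1, the smallest possible).

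The mean of the 13 tested AT2 markers was itself lower with bleomycin (a difference of -1.78, without overlap), and that fall enters each difference below. Against this mean the direction of the receptors turned, as it would for any gene that fell by less. This comparison, too, was chosen after seeing the data. Erbb3 minus the AT2 mean was -4.04, -4.02 and -3.53 in bleomycin libraries and -4.57, -4.52 and -4.20 in PBS libraries, higher with bleomycin by 0.56. Erbb2 was higher by 0.81, also without overlap (exact two-sided permutation p = 0.1 for both), and Egfr by 0.73 with overlapping groups (exact p = 0.3). Areg, Hbegf and Tgfa were higher relative to AT2 markers by 1.84, 1.77 and 1.62, each without overlap (exact p = 0.1). Errfi1 differed by -0.05, with bleomycin libraries at both ends of its range (exact p = 0.8).

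**Figure D4:**
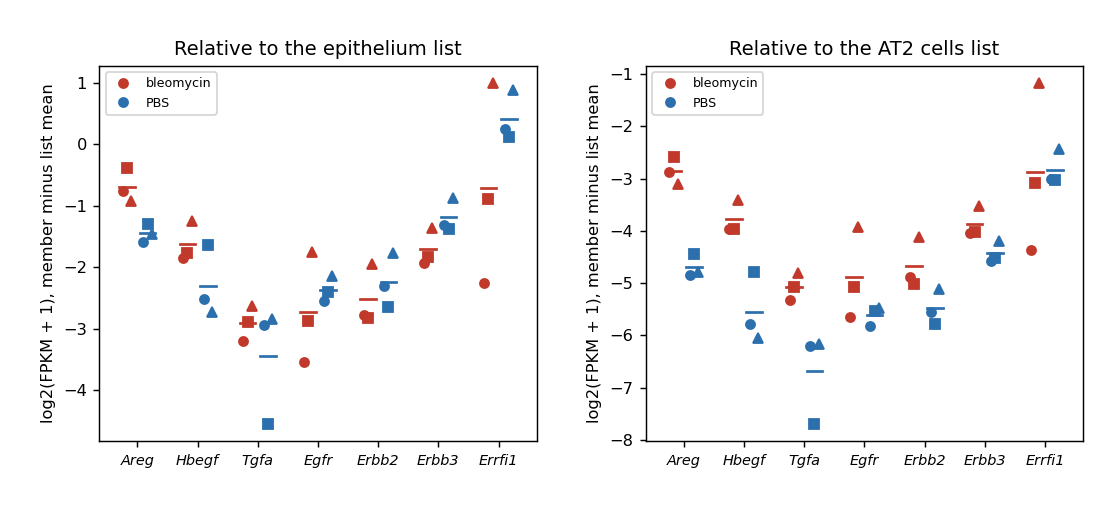
Log2(FPKM + 1) of each tested gene minus the mean log2(FPKM + 1) of 8 epithelial genes (left) or 13 AT2 genes (right) in the same library, for bleomycin libraries (red) and PBS libraries (blue), with circles, squares and triangles for replicates 1, 2 and 3 and a bar at the mean. Against epithelial genes the receptor values overlap between groups and Areg is higher with bleomycin, and against AT2 genes Areg, Hbegf, Tgfa, Erbb2 and Erbb3 are higher in every bleomycin library. Both list means are themselves lower in every bleomycin library than in every PBS library.

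For the rest of the pathway 71 genes in 8 groups were looked up, of which 66 were found and 62 tested. With bleomycin 8 rose and 5 fell, or 12.9% and 8.06% of those tested, close to the 15.2% and 7.34% of all tested genes, and the median log2 fold change was 0.11. With equal medians or quantile normalization the split was 6 that rose and 7 that fell. Leukocyte and endothelial markers were high in the same bleomycin libraries. Their part in the levels of the pathway genes, among them Nras, Cbl, Dusp5 and Myc, was not tested. In the group of further ligands and receptors only Nrg1 and Nrg2, genes of neuregulins, were analysed. Nrg1 measured 1.08, 1.34 and 0.780 FPKM in bleomycin libraries and 0.0772, 0.697 and 0.431 FPKM in PBS libraries, and was below the filter. Nrg2 measured 0.955, 2.02 and 3.71 FPKM in bleomycin libraries and 5.17, 2.51 and 4.60 FPKM in PBS libraries, with overlap (limma adjusted p = 0.224). Erbb4, Egf, Epgn, Nrg3 and Nrg4 were not analysed here.

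Genes of ligand release split in both directions. Rhbdf1, which encodes iRhom1, a partner of the ligand-shedding protease ADAM17, fell with a log2 fold change of -0.92 (limma adjusted p = 0.0437). It measured 6.96, 5.89 and 10.9 FPKM in bleomycin libraries and 18.3, 15.6 and 12.8 FPKM in PBS libraries. Frmd8, whose product stabilises the iRhom and ADAM17 complex, rose by 0.75 (limma adjusted p = 0.0165), with 14.7, 13.2 and 13.03 FPKM in bleomycin libraries and 8.20, 8.16 and 6.80 FPKM in PBS libraries. The proteases themselves, Adam17 and Adam10, had log2 fold changes of 0.11 and 0.49 and did not pass (limma adjusted p of 0.873 and 0.291). Leaving out a library ended the call of Rhbdf1 in 5 of 6 cases and that of Frmd8 in 3 of 6.

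Downstream of the receptors, none of 7 adaptor genes passed, Gab1 coming nearest (-0.62, limma adjusted p = 0.0687), and of 10 genes from Ras to ERK only Nras did. Nras rose by 1.35 (limma adjusted p = 0.0309), with 16.4, 15.4 and 20.2 FPKM in bleomycin libraries and 4.92, 4.22 and 10.9 FPKM in PBS libraries, and its call ended in 5 of 6 cases with a library left out. Among 7 genes of PI3K and AKT, Pik3cd and Pik3cb, of catalytic subunits, rose by 4.08 and 0.71. Pik3cd, the subunit known from leukocytes, measured 48.2, 39.6 and 31.7 FPKM in bleomycin libraries and 1.26, 1.82 and 1.13 FPKM in PBS libraries, and leukocyte markers were high in the same bleomycin libraries. Their part in this difference was not tested. The call of Pik3cb (limma adjusted p = 0.0243) ended with equal medians (0.0609), with quantile normalization (0.0919) and in 4 of 6 cases with a library left out.

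Genes of receptor turnover held 1 that rose and 1 that fell among 12. Cbl, a ubiquitin ligase that marks activated EGFR for degradation, rose by 1.47 (limma adjusted p = 0.0125), with 14.7, 15.6 and 19.3 FPKM in bleomycin libraries and 3.26, 7.43 and 5.85 FPKM in PBS libraries. Usp8, a deubiquitinase that acts on internalised EGFR, fell with a log2 fold change of -0.83 (limma adjusted p = 0.0132). It measured 23.0, 23.4 and 21.6 FPKM in bleomycin libraries and 35.6, 47.7 and 40.2 FPKM in PBS libraries. On its most abundant transcript alone Usp8 did not pass (-0.39, limma adjusted p = 0.469). Lrig1, which lowers ErbB receptor levels, and Rnf41, a ubiquitin ligase of ERBB3, had log2 fold changes of -0.20 and -0.32 and did not pass (limma adjusted p of 0.535 and 0.419).

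Feedback and target genes of ERK moved in different directions. Dusp5, a phosphatase that acts on ERK in the nucleus, rose by 3.10 (limma adjusted p = 0.004005), with 50.1, 16.0 and 38.3 FPKM in bleomycin libraries and 3.25, 3.72 and 1.69 FPKM in PBS libraries. Dusp6, its cytoplasmic counterpart, measured 39.4, 24.3 and 18.2 FPKM in bleomycin libraries and 5.04, 9.84 and 34.4 FPKM in PBS libraries, and did not pass (limma adjusted p = 0.301). Spred2, an inhibitor of Ras to ERK signalling, fell with a log2 fold change of -0.67 and Rasa1, a GTPase activator of Ras, rose by 0.52 (limma adjusted p of 0.0440 and 0.0427). Leaving out a library ended the call of Spred2 in 5 of 6 cases and that of Rasa1 in 6 of 6.

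Of 10 tested ERK-induced genes 1 rose and 2 fell. Myc, a growth-promoting transcription factor, rose by 2.01 (limma adjusted p = 0.00424), with 27.04, 22.7 and 21.1 FPKM in bleomycin libraries and 4.36, 8.30 and 3.53 FPKM in PBS libraries. Phlda1 fell with a log2 fold change of -1.26 (limma adjusted p = 0.00356), with 32.6, 38.7 and 33.4 FPKM in bleomycin libraries and 88.5, 97.7 and 70.9 FPKM in PBS libraries. Etv5, an ETS transcription factor that is also one of the AT2 markers here, fell with a log2 fold change of -2.43 (limma adjusted p = 0.0389). Its values were 42.8, 16.5 and 8.81 FPKM in bleomycin libraries and 157, 142 and 51.5 FPKM in PBS libraries, and its call ended in 4 of 6 cases with a library left out. Egr1 and Fos, induced within minutes by ERK and also by cell dissociation, had log2 fold changes of -0.46 and 0.28 and did not pass (limma adjusted p of 0.306 and 0.627).

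**Figure D5:**
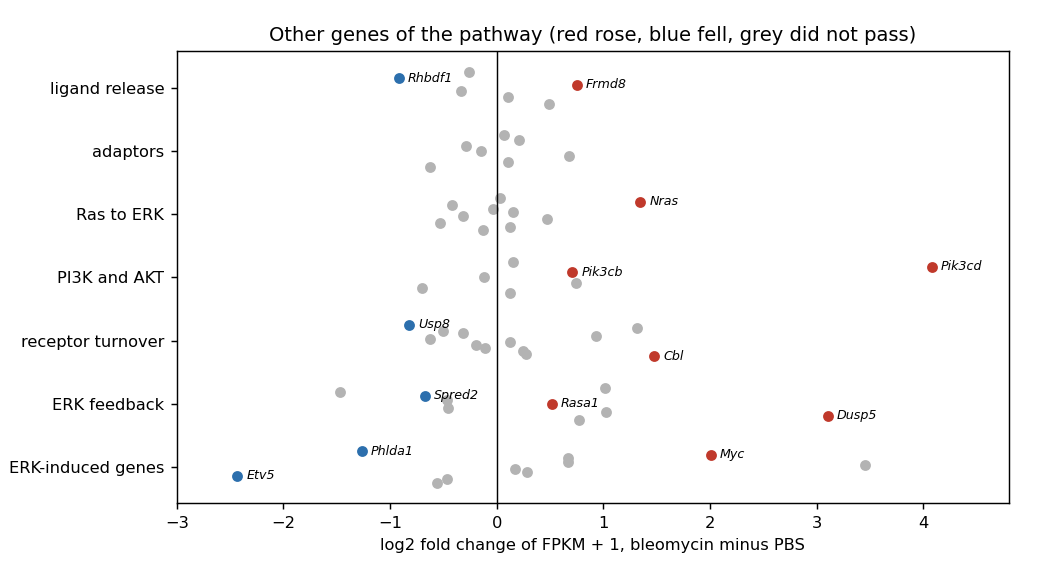
Log2 fold change of FPKM + 1, bleomycin minus PBS, for the tested genes of 7 groups of the pathway, 1 point a gene, in red where the gene rose and blue where it fell at a limma adjusted p under 0.05, and in grey otherwise. Pik3cd (4.08), Dusp5 (3.10) and Myc (2.01) lie farthest to the right among genes that rose, and Etv5 (-2.43) farthest to the left among those that fell.

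Genes whose profile over the 6 libraries came nearest to each receptor were found by the root mean square difference of log2(FPKM + 1) values, each centred on its own mean. For Erbb3 they were Adk (0.0570), Chrnb1 (0.0760) and Bcan (0.0804). Erbb2 had Epdr1 (0.0687), Apbb1 (0.108) and C77370 (0.109) as its nearest genes. The nearest to Egfr were Tcaf1 (0.0728), Dapk1 (0.0909) and Exph5 (0.0986). All 9 of these genes were lower with bleomycin, by log2 fold changes of -0.82 to -1.31, which the choice by profile fixes.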

How the data were processed

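RNA libraries were made from total RNA isolated with TRIzol with a KAPA stranded kit, per the labels' protocols. HISAT2, StringTie, FastQC 0.10.1 and mm10 are named per the submitters' processing notes, but no source used here names the annotation, settings or use of strand in counting. The authors deposited 1 file per library with FPKM per transcript, per the file headers.

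Low values did not fall on whole multiples of a common step (at most 38.9% within 0.05 of one), so depth and counting error are unknown. Egfr, Erbb2, Ereg, Errfi1 and Tgfa overlap a gene on the other strand. Of 11 member transcripts, 10 have the same version in GENCODE M21, from which exon and codon counts come.

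FPKM were summed by gene ID. Genes at 1 FPKM or more in at least 3 of 6 libraries (12326) were tested together on log2(FPKM + 1) with limma 3.58.1 in R 4.3.3 (trend, group only, Benjamini-Hochberg, threshold 0.05). Fold changes are bleomycin minus PBS and understate changes of low genes. Pooled ratios were tested by exact permutation (scipy 1.17.1). Groups and replicate numbers come from the sample titles. Alternatives covered the pseudocount, filter, scaling, transcript, variance model, library weights, replicate block and each library left out. The limma step was tested on simulated data with 200 changed genes. It recovered 23% of those changed by 1 log2 unit and 66% of those changed by 2, and 1.11% of its calls were false. A gene that did not pass may therefore still have changed. Recovery in these data may differ, since 22.5% of tested genes were called here, against 200 of 12326 changed in the simulation. Genes named are all members, in each pathway group up to 3 genes with the smallest adjusted p and those under 0.05, marker genes and each called member's 3 nearest profiles. Beyond that rule, Adam10, Adam17, Lrig1, Rnf41, Dusp6, Egr1, Fos, Nrg1 and further marker genes were chosen after their values were seen. Members and lists were chosen with earlier results of these data known.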

Additional observations from a re-analysis of the deposited data

How the results depend on the processing

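Erbb2 and Erbb3 fell under all 11 alternative settings, with log2 fold changes of -1.18 to -0.60 and -1.40 to -0.91, and with each library left out (-1.04 to -0.91 and -1.28 to -1.09). Egfr fell under 10 settings, but not with the replicate block (-1.06, limma adjusted p = 0.0518), and with a library left out ranged from -1.24 to -0.82. Errfi1 passed with a pseudocount of 5 (-1.56), equal medians (-2.02) and library weights (-1.88), and ranged from -2.39 to -1.24 with a library left out. Values near 0 turned sign: Areg with equal medians (-0.13) and quantile normalization (-0.060), and Hbegf with a pseudocount of 0.1 (0.00093) and library weights (0.082). With a library left out, Areg ranged from -0.22 to 0.47, Hbegf from -0.40 to 0.45, Tgfa from -0.58 to 0.12 and the difference between groups in the log2 ratio of Erbb3 to Egfr from -0.46 to 0.14. The difference between groups in the log2 ratio of ligands to receptors was 1.22 to 1.24 in the 3 alternative settings run for it and 1.04 to 1.51 with a library left out.

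Of the 9 genes, 2 to 4 fell and 0 rose under every setting. Of the pathway genes, 8 rose and 5 fell, against 6 and 7 with equal medians and with quantile normalization, 5 and 3 with the replicate block, and 6 and 2 on the highest transcript alone. With a library left out 4 to 7 rose and 2 to 4 fell. Cbl, Dusp5, Myc, Phlda1 and Pik3cd, 5 of the 13, kept their calls throughout. Over all tested genes, 905 fell, against 1412 with equal medians, 1441 with quantile normalization, 563 with the replicate block and 457 to 873 with a library left out. Same-numbered libraries did not deviate together (correlations of -0.00431, 0.0172 and 0.0391 across genes), so the numbers were not treated as pairs, and the block changed no other member's call.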

Other observations

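Near the ligand cluster on chromosome 5, Cxcl2 rose and Mthfd2l did not pass the test. Cxcl2, the gene of a chemokine that attracts neutrophils, lies on the same chromosome at chr5:90903871-90905938, before Ereg, and measured 54.0, 23.7 and 73.5 FPKM in bleomycin libraries and 0.996, 3.9998 and 0.382 FPKM in PBS libraries. It rose by 4.28 (log2 fold change, limma adjusted p = 0.00338). Mthfd2l, a gene of mitochondrial folate metabolism between Cxcl2 and Ereg, measured 5.20, 1.67 and 3.89 FPKM in bleomycin libraries and 1.95, 2.14 and 2.59 FPKM in PBS libraries, with overlapping groups (0.43, limma adjusted p = 0.389). These genes were chosen by position. Leukocyte markers, those of neutrophils among them, and endothelial markers were higher in the same bleomycin libraries. Their part in the Cxcl2 values was not tested.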
